A study of Mus musculus with 4 samples.

Results

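The genes described here encode 9 cell surface receptors through which melanocytes and their precursors receive growth, survival and differentiation factors: Kit, Ednrb, Mc1r, Erbb3, Erbb2, Met, Igf1r, Fgfr1 and Fgfr2. They were chosen by name, for their known role, out of 27933 genes in the count tables, and all 9 had enough reads to be among the 13348 genes tested. RNA was sequenced from melanocyte stem cells purified from mouse skin by fluorescence-activated cell sorting, in 2 control and 2 stressed libraries. By the treatment label, control mice received saline and stressed mice received RTX, an agent that the labels do not spell out. Cells were taken 12 h after the injection. The protocol text attached to all 4 libraries names only the RTX injection, so saline in the controls rests on the treatment label. The sources used here do not give strain, genotype, sex, age, the number of mice per library or the surface markers of the sort. The labels do not say whether the 2 libraries of a group came from separate animals, so p-values measure the spread between libraries, which may be technical.

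Melanocyte stem cells lie in the hair follicle and give rise to the pigment cells that colour the hair. Kit, Erbb2, Erbb3, Met, Igf1r, Fgfr1 and Fgfr2 encode receptor tyrosine kinases, which dimerise on binding a growth factor and signal through the RAS-MAP kinase and PI3 kinase cascades. Ednrb and Mc1r encode G protein-coupled receptors, for endothelins and for melanocyte-stimulating hormone. Loss of Kit or Ednrb signalling leaves unpigmented skin and hair in mice, and Mc1r, which raises cyclic AMP, sets the balance between black and yellow pigment. Kit protein, also called CD117, is a common marker for sorting these cells. If the sort used it, Kit RNA would not be independent of the gate.

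As read counts scaled to library size (CPM, counts per 1000000 assigned reads, on totals scaled by the TMM method), the 9 genes together made up 4323 and 4626 CPM in control replicates 1 and 2, and 5547 and 6033 CPM in stressed replicates 1 and 2. Library totals ran from 9273652 to 11854280 reads. Where no read was found, up to 3 reads are allowed by counting error alone, which is 0.253 to 0.324 CPM. The labelled cell type was checked against 10 melanocyte lineage markers, all detected in every library, which summed to 20935 and 19969 CPM in the controls against 37654 and 34714 CPM in the stressed libraries. The 17 keratinocyte markers were all detected too, at 30100 and 18221 CPM in the controls against 11756 and 9899 CPM in the stressed libraries. Their fitted difference was negative for 16 of 17, and in 12 both stressed libraries lay below both controls, against 50.9% and 22.9% of all tested genes. All 10 melanocyte markers fitted higher, and in 7 both stressed libraries lay above both controls, against 49.1% and 21.8% of all tested genes. Sums for most other cell types were small. They were 0.469 to 5.79 CPM for 7 mast cell markers, with Mcpt4 and Tpsb2 at 0 in all libraries. For 5 endothelial markers they were 0.376 to 1.71 CPM, with Cdh5 and Cldn5 at 0. They were 6.11 to 23.5 CPM for 6 fibroblast markers and 6.01 to 40.0 CPM for 6 other immune markers. The 6 Schwann cell markers summed to 52.0 to 80.0 CPM. The sum was not small for 6 markers chosen for stem and germ cells in the follicle, at 1088 to 1500 CPM. Most of that sum was Cdh3, at 751.5 to 1182 CPM. In such bulk samples, fewer cells of a type and less RNA per cell cannot be told apart.

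Levels were compared between genes per kilobase of exon. The divisor was the length of all annotated exons of a gene together, such as 8911 bases for Kit and 4037 for Ednrb. The length of the transcripts present was not measured, so the order, shares and ratios between genes hold for that divisor only. In control cells Ednrb stood highest, at 299 ± 13 CPM per kb (SD, n = 2), followed by Kit at 207 ± 5 and Erbb3 at 109 ± 18. Erbb2 at 38.9 ± 2.5 and Met at 37.9 ± 5.3 did not differ beyond their spread. Fgfr2 at 13.3 ± 1.6 and Mc1r at 11.1 ± 6.8 did not either, and Mc1r and Fgfr1, at 5.00 ± 1.36, were closer than their combined SD. Igf1r was lowest, at 3.22 ± 0.70 CPM per kb. Ednrb and Kit lay at or above the 98.7th percentile of all tested genes per length in every library, and Erbb3 at or above the 96.5th, while Igf1r lay between the 26.1st and 34.1st.

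The order differed in stressed cells. Kit came first, at 335 ± 51 CPM per kb, although 1 of its libraries lay below the higher Ednrb library and the difference from Ednrb, at 298 ± 23, was within the combined SD. Met, at 62.4 ± 1.2, lay above Erbb2, at 29.7 ± 0.9, in both libraries. Mc1r, at 26.8 ± 7.0, was within the spread of Erbb2 and above Fgfr2, at 6.77 ± 2.32. Kit took 29% and 28.2% of the summed per-length level of the 9 genes in the controls against 34.7% and 40.9% in the stressed libraries. The share of Ednrb was 41.3% and 41.2% in the controls against 36.5% and 31.1%. The per-length ratio of Kit to Ednrb was 0.701 and 0.684 in the controls against 0.952 and 1.31 in the stressed libraries.

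**Figure D1:**
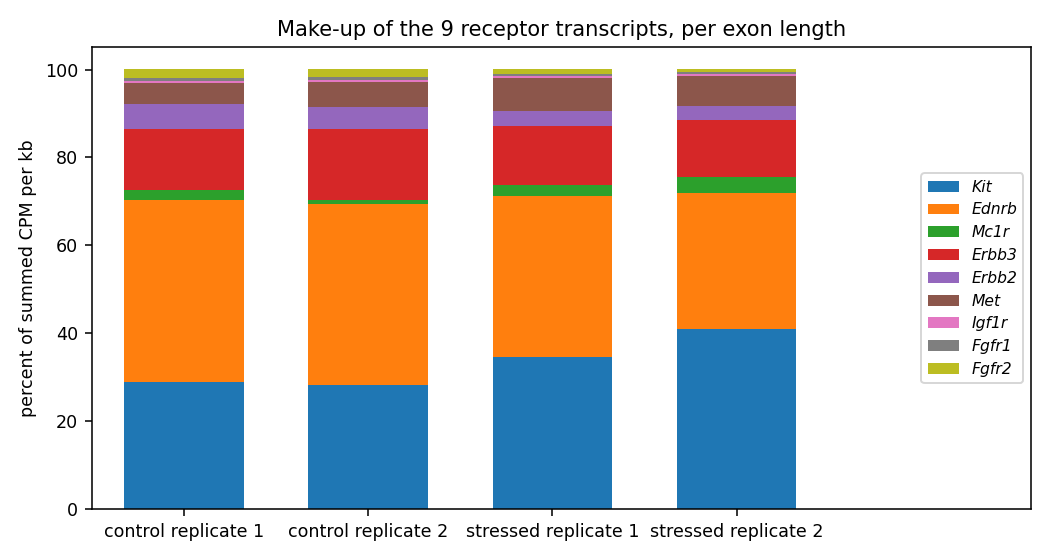
Share of each receptor gene in the summed CPM per kb of exon of the 9 genes, as a percent, 1 stacked bar per library. Kit widens from 29% and 28.2% in the controls to 34.7% and 40.9% in the stressed libraries, and Ednrb narrows from 41.3% and 41.2% to 36.5% and 31.1%.

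Stressed and control cells were then compared gene by gene, to ask which of these receptors differ 12 h after the injection. For Kit, Met and Mc1r each stressed library lay above each control, and for Fgfr2 and Erbb2 each lay below. Ednrb, Erbb3, Igf1r and Fgfr1 overlapped between the groups. Among all tested genes 21.8% were separated upward and 22.9% downward in this way, 44.7% in all. The 3 receptors up and 2 down are therefore close to that background. The edgeR quasi-likelihood test, adjusted by the Benjamini-Hochberg method over all tested genes, called 0 of the 9 receptors and 0 of all 13348 genes tested (0%). The smallest adjusted p was 0.115. By that test 3 receptors were higher and 1 was lower at an unadjusted p below 0.05, as were 5.17% and 7.60% of all tested genes. The DESeq2 Wald test, the tool listed in the submitters' processing notes, called Kit and Met higher and Fgfr2 lower at an adjusted p below 0.05, against 1.75% of tested genes called higher and 2.67% called lower (4.41% together). With limma-voom the count among all genes was 0, and edgeR with no filter on low counts called 4.02% of genes, Mc1r and Fgfr2 among them.

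**Figure D2:**
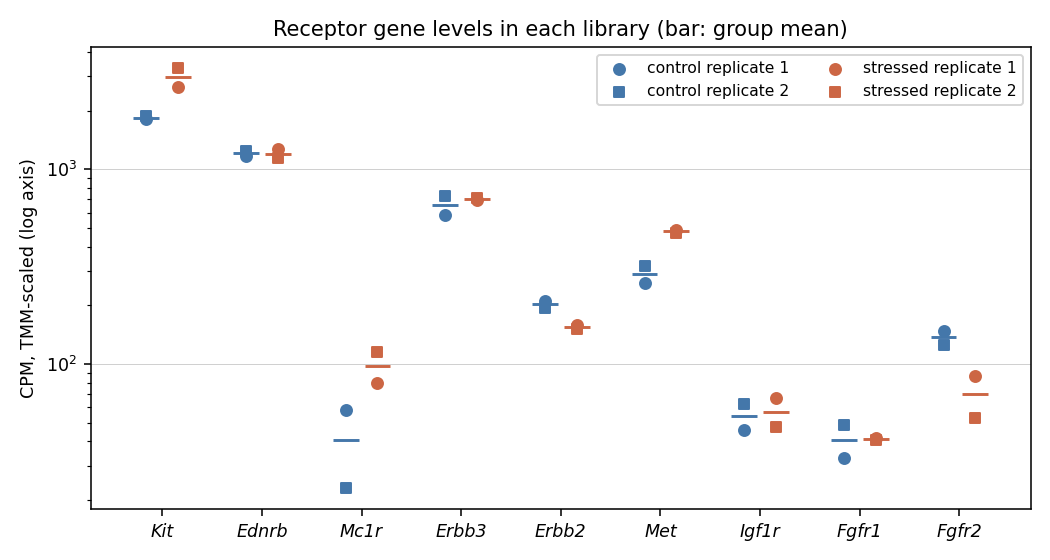
CPM of each receptor gene in each of the 4 libraries on a log axis, with control libraries in blue, stressed libraries in orange, circles for replicate 1, squares for replicate 2 and a bar at each group mean. The groups are apart for Kit, Mc1r, Erbb2, Met and Fgfr2 and overlap for Ednrb, Erbb3, Igf1r and Fgfr1.

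Kit (chromosome 5, 75574916-75656722, mm10, plus strand) encodes the receptor for stem cell factor, which melanoblasts need for survival and migration. Control replicates 1 and 2 had 1811 and 1877 CPM, and stressed replicates 1 and 2 had 2665 and 3303 CPM. The controls were 1.04-fold apart and the stressed libraries 1.24-fold apart, while the lower stressed library lay 1.42-fold above the higher control. The fitted log2 fold change was 0.69 with an SE of 0.24, a fold of 1.62, and the edgeR adjusted p was 0.313. By DESeq2 Kit rose, with an adjusted p of 0.0167. That call held when control replicate 1 (0.0405) or 2 (0.0151) was left out, and was lost when stressed replicate 1 (0.286) or 2 (1) was left out.

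Met (chromosome 6, 17463800-17573980, plus strand) encodes the receptor for hepatocyte growth factor, a mitogen and motility factor for melanocytes. Its level was 262 and 320 CPM in the controls against 486 and 473 CPM in the stressed libraries. The stressed pair was 1.03-fold apart, and its lower value lay 1.48-fold above the higher control. The log2 fold change of 0.72 (SE 0.20) did not pass edgeR (adjusted p = 0.238) and passed DESeq2 (adjusted p = 0.0153). Without control replicate 2 it passed both tests, at 0.0424 by edgeR and 0.00182 by DESeq2. The DESeq2 call was lost when control replicate 1 (0.107), stressed replicate 1 (0.65) or stressed replicate 2 (0.843) was left out.

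Mc1r (chromosome 8, 123407107-123410744, plus strand) was the member with the largest fitted difference and the least alike controls. Control replicate 1 had 58.1 CPM and control replicate 2 had 23.0 CPM, a 2.53-fold gap, from 542 and 271 reads. The stressed libraries were at 79.4 and 115 CPM, from 846 and 1269 reads, and the lower of them lay 1.37-fold above the higher control. The log2 fold change was 1.27 (SE 0.44), with an adjusted p of 0.311 by edgeR and 0.0626 by DESeq2. Besides the filter on low counts, the call depended on control replicate 1. Without it the log2 fold change was 2.10, with an edgeR adjusted p of 0.000713 and a DESeq2 adjusted p of 2.98e-07, whereas without control replicate 2 it was 0.75, at 0.159 by edgeR. With no low-count filter edgeR called Mc1r higher at an adjusted p of 0.0035. No exonic base of the Mc1r model is shared with another gene of the tables. The nearest gene downstream, Tubb3, starts 680 bp after its end on the same strand, and had 89 and 130 reads in the controls against 137 and 191 in the stressed libraries.

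The sequences upstream of the 3 genes with higher values are shown because Mitf, the lineage's transcription factor, is known to bind the E-boxes CATGTG and CACGTG, and Mc1r and Met are known as its targets. They are RefSeq windows on GRCm38.p6, the assembly called mm10, read 5′ to 3′ on the gene's strand, with those 2 E-boxes on either strand in capitals. For Mc1r the window is the 250 bases before the RefSeq start (chr8:123406832-123407081). For Kit it is the 179 bases that precede the deposited gene model (chr5:75574737-75574915). For Met it is 30 bases around its E-box (chr6:17463819-17463848), which falls inside the first exon of the deposited model.
Mc1r: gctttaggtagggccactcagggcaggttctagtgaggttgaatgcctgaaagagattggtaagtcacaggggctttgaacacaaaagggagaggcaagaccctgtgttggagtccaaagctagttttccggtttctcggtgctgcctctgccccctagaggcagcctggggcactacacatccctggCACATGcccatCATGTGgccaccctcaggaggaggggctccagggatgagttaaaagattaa
Kit: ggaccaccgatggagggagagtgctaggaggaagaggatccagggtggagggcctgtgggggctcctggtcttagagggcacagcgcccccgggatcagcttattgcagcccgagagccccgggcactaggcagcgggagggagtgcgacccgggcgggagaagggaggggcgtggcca
Met: gggacgaacagaCACGTGctggggcgggta

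Mc1r had CATGTG at 2 places, beginning 62 and 51 bases before the RefSeq start, and Met had CACGTG once, beginning 126 bases before it. Windows of 250 bases were found in the RefSeq table for 7 of the 9 receptors, all but Erbb3 and Fgfr1. Those of Kit, Ednrb, Erbb2, Igf1r and Fgfr2 held neither E-box. Of 32851 such windows in the table, 12.3% held CATGTG, 6.02% held CACGTG and 1.62% held CATGTG more than once. The cyclic AMP response element TGACGTCA and the SOX motif ACAAAG were in none of the 7 windows, against 1.55% and 16.5% of all windows. The shorter core TGACG, which also occurs inside the full element, was in those of Ednrb and Erbb2, against 17.8%. The window of Mc1r had 54.4% G and C and 2 CG dinucleotides, that of Met 74.0% and 24, and that of Kit 70.8% and 17. These matches describe the letters in these windows only, and binding was not measured.

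Ednrb (chromosome 14, 103814625-103844173, minus strand), the endothelin receptor of the lineage, was the receptor with the smallest difference. It was at 1170 and 1243 CPM in the controls against 1269 and 1138 CPM in the stressed libraries, so that the stressed pair spanned the control pair. The log2 fold change was -0.004 with an SE of 0.21 (edgeR adjusted p = 0.997), and its sign was not stable to the scaling or to leaving out 1 library. Ednra, which encodes the other endothelin receptor, was at 6.64 and 3.30 CPM in the controls against 5.16 and 4.27 CPM in the stressed libraries.

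Erbb3 and Erbb2 encode partners that together form the neuregulin receptor, in which Erbb3 binds the ligand and has little kinase activity of its own, and Erbb2 binds no ligand and supplies the kinase. Erbb3 (chromosome 10, 128567523-128589652, minus strand) was at 584 and 733 CPM in the controls against 695 and 712 CPM in the stressed libraries, and both stressed values fell between the controls. Its log2 fold change was 0.096 (SE 0.21, edgeR adjusted p = 0.908), and the sign turned without control replicate 1. Erbb2 (chromosome 11, 98412470-98437716, plus strand) was at 212 and 194 CPM in the controls against 158 and 152 CPM in the stressed libraries. Its pairs were 1.09-fold and 1.04-fold apart and the groups were separate, with a log2 fold change of -0.39 (SE 0.17). Neither edgeR (adjusted p = 0.424) nor DESeq2 (0.421) called it. Only 9 exonic bases of Erbb2 are shared with its neighbour Mien1.

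The per-length ratio of Erbb3 to Erbb2 was 2.39 and 3.28 in the controls against 3.81 and 4.07 in the stressed libraries. Erbb4, the other neuregulin receptor, was close to absent, with 12 and 10 reads in the controls against 19 and 23 in the stressed libraries. Egfr, the receptor for epidermal growth factor and a receptor of keratinocytes, was at 90.4 and 103 CPM in the controls against 73.8 and 64.3 CPM in the stressed libraries. Its log2 fold change of -0.49 (SE 0.18) was not called by edgeR (adjusted p = 0.345) or DESeq2 (0.361).

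Fgfr2 (chromosome 7, 130162451-133123350, minus strand) encodes a fibroblast growth factor receptor that is prominent in epithelia, where a splice form binds the factors made by dermal fibroblasts. It was at 148 and 126 CPM in the controls against 86.8 and 53.0 CPM in the stressed libraries, and all stressed values lay below all control values. The higher stressed library was at 0.692 of the lower control. The log2 fold change of -0.97 (SE 0.27) did not pass edgeR (adjusted p = 0.238), and Fgfr2 fell by DESeq2 (adjusted p = 0.0371). With no low-count filter edgeR called it too, at 0.00959. The DESeq2 call held without control replicate 2 (0.0284) and was lost when control replicate 1 (0.21), stressed replicate 1 (0.0606) or stressed replicate 2 (1) was left out. The 17 keratinocyte markers were lower in the same libraries, as given above. As a percent of their summed CPM, Fgfr2 was at 0.493 and 0.689 in the controls against 0.739 and 0.536 in the stressed libraries, which overlap. Every other receptor was higher in both stressed libraries on that scale. Erbb2, also lower in CPM, was at 0.704 and 1.06 in the controls against 1.34 and 1.53 in the stressed libraries. Because the marker sum was lower in both stressed libraries, a gene with level CPM comes out higher on that scale by construction. Whether keratinocyte RNA has a part in the Fgfr2 difference was not tested.

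The deposited model of Fgfr2 is unusually wide. After the main body, which ends at 130266263, it continues across a gap of 2815493 bases to 2 exons between 133081757 and 133123350. All 314 bases of these exons are also exons of Ctbp2, which encodes a transcriptional corepressor. They make up 3.04% of the exon length, and the file headers show no option to count reads that fall on more than 1 gene. GENCODE M21 gives the same span.

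Fgfr1 and Igf1r were the receptors with the lowest levels per length and did not separate. Fgfr1 (chromosome 8, 25513654-25575714, plus strand) binds basic fibroblast growth factor, a melanocyte mitogen. It was at 32.8 and 48.4 CPM in the controls against 41.5 and 40.5 CPM in the stressed libraries, with a log2 fold change of 0.013 (SE 0.26, edgeR adjusted p = 0.991). Igf1r (chromosome 7, 67952827-68233668, plus strand) encodes the receptor for insulin-like growth factor 1. Its values were 45.6 and 62.4 CPM in the controls against 66.6 and 47.2 CPM in the stressed libraries, and the log2 fold change was 0.074 (SE 0.26, edgeR adjusted p = 0.946). By edgeR both signs turned when control replicate 1 or stressed replicate 1 was left out. In the latter fit the value of Fgfr1 was -0.001. The per-length ratio of Fgfr2 to Fgfr1 was 3.56 and 2.04 in the controls against 1.65 and 1.03 in the stressed libraries.

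**Figure D3:**
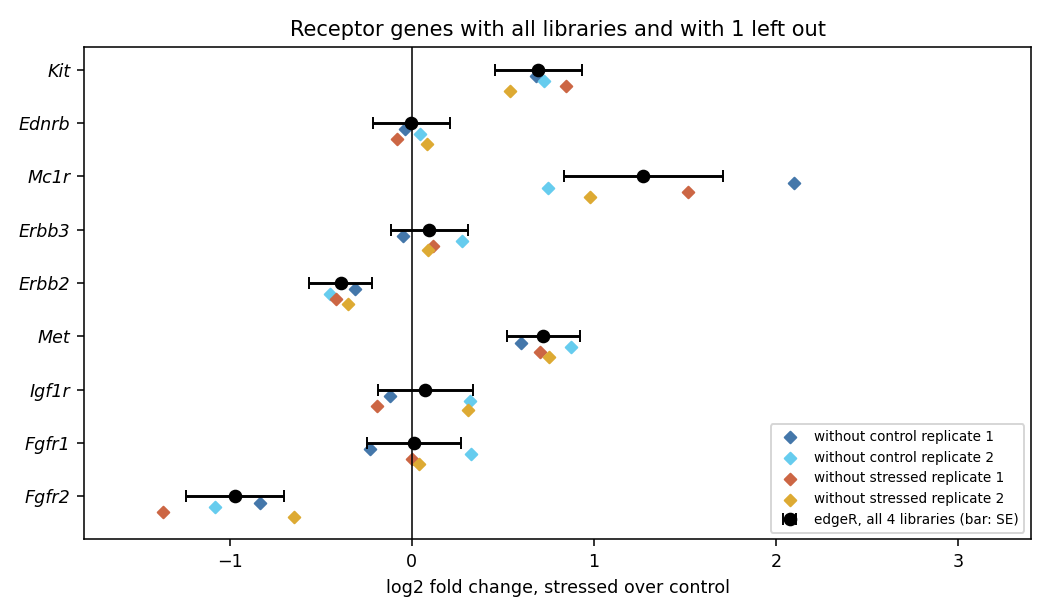
Fitted log2 fold change of each receptor gene, stressed over control, from edgeR with all 4 libraries (black, bar: SE) and with each library left out (coloured diamonds). Kit, Mc1r and Met stay above 0 and Erbb2 and Fgfr2 below 0 in all 5 fits, Mc1r ranges from 0.75 to 2.10, and the diamonds of Ednrb, Erbb3, Igf1r and Fgfr1 lie on both sides of 0. Kit, Mc1r, Met, Erbb2 and Fgfr2 are the receptors whose groups did not overlap, and leaving out a library could hardly turn their sign.

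The receptors were also set against lineage markers of the same libraries, with the denominators chosen after the values were seen. As a percent of the summed CPM of the 10 melanocyte lineage markers, Kit was at 8.65 and 9.40 in the controls against 7.08 and 9.51 in the stressed libraries. On that scale Met, at 1.25 and 1.6 against 1.29 and 1.36, and Mc1r, at 0.277 and 0.115 against 0.211 and 0.332, also overlapped. The other 6 receptors were lower in both stressed libraries on that scale. Ednrb, for example, was at 5.59 and 6.23 in the controls against 3.37 and 3.28 in the stressed libraries. Because the marker sum was higher in both stressed libraries, a gene with level CPM comes out lower on that scale by construction. How many of all tested genes do so was not counted. The sum is dominated by pigment genes such as Dct, Tyrp1 and Pmel, and DESeq2 called Tyrp1, Pmel and Slc45a2 higher. Against the 3 lineage transcription factors Mitf, Sox10 and Pax3, whose sum was 1602 and 2177 CPM in the controls against 2121 and 2284 CPM in the stressed libraries, Kit was higher in both stressed libraries. It stood at 113% and 86.2% of that sum in the controls against 126% and 145% in the stressed libraries. Met, at 16.3% and 14.7% against 22.9% and 20.7%, and Mc1r, at 3.62% and 1.05% against 3.74% and 5.05%, were higher on that scale too. Erbb3, Erbb2, Fgfr1 and Fgfr2 were lower in both stressed libraries on it, and Ednrb and Igf1r overlapped. Whether Kit, Met and Mc1r lie above or level with the lineage therefore depended on which lineage genes they were set against. The melanocyte marker sum was higher in the same libraries as these 3 receptors, and its part in their differences was not tested.

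The 9 profiles were compared with those of all genes of at least 10 CPM, as the root mean square difference of log2(CPM + 0.5) over the 4 libraries after centring each gene on its own mean. Over 4 libraries such likeness is a description only. The genes nearest to Kit were Cul7, Lmna and Camkk2, at 0.025 to 0.028 log2 units. Dzip3 (0.020) and Osbpl6 (0.034) were among the 3 genes nearest to Met, and Mc1r was nearest to Plxna4, Srgap1 and Spsb4, at a wider 0.103 to 0.151. Erbb2 lay near Alkbh4, March8 and Paqr8 (0.016 to 0.019), and Erbb3 near Cnot1, Ube2q1 and Trpc4ap (0.008 to 0.014). Ednrb had Prkx, Sfpq and Amz2 as nearest genes (0.012 to 0.016), and Fgfr1 had Ccdc130, Calcoco1 and Rnf114 (0.008 to 0.020). For Igf1r they were Ahi1, Zscan26 and Iqcb1 (0.025 to 0.041), and for Fgfr2 they were Fahd2a, Grb7 and Mbp (0.040 to 0.054). Within the family the closest pair was Erbb3 and Fgfr1, at 0.090, Kit and Met were 0.150 apart, and Mc1r and Fgfr2 were farthest apart, at 1.32.

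The ligand list held ligands of these receptors and also Egf, Tgfa, Hbegf, Areg, Ereg and Btc of the epidermal growth factor family. Those bind Egfr and none of the 9 directly. The whole list summed to 185 and 86.7 CPM in the controls against 163 and 103 CPM in the stressed libraries. Of 20 ligand genes measured, 14 were tested, 8 fitted higher and 6 lower, the median log2 fold change was 0.12 against -0.009 over all tested genes, and neither edgeR nor DESeq2 called any. Kitl, which encodes stem cell factor, had 94 and 32 reads in the controls against 175 and 110 in the stressed libraries. Edn3, the endothelin that acts on melanoblasts, had 0 reads in both controls and in stressed replicate 2, and 16 in stressed replicate 1. Hgf had 1 read in control replicate 1 and none in the others, which allows up to 0.253 to 0.282 CPM in those. Igf1 had 6 reads in stressed replicate 1 and 0 in the others. Pomc, the precursor of melanocyte-stimulating hormone, had 2 and 9 reads in the controls against 12 and 3 in the stressed libraries. Fgf2 had 2 and 6 reads in the controls against 13 and 34 in the stressed libraries, Nrg1 had 3 and 6 against 33 and 11, and Fgf1 had 27 and 49 against 16 and 13. These were the tested ligands whose groups did not overlap, 2 higher and 1 lower of 14, against 21.8% and 22.9% of all tested genes. Only Nrg2, a neuregulin, and Tgfa, Hbegf, Areg, Ereg and Btc averaged at least 10 CPM, so that level left only these to compare. Nrg2 had 127 and 68 reads in the controls against 74 and 151 in the stressed libraries. Kitl fell just below that level, at a mean of 9.80 CPM, with a log2 fold change of 1.06 (SE 0.64, edgeR adjusted p = 0.559). Tgfa was at 20.6 and 13.5 against 31.3 and 19.6 CPM, and Ereg at 24.4 and 3.56 against 12.4 and 10.9 CPM. Btc, at 52.5 and 1.86 CPM in the controls against 18.9 and 4.27 CPM in the stressed libraries, varied more within groups than between them.

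Of 16 related receptor genes 9 were tested, 3 fitted higher and 6 lower, and the median log2 fold change was -0.27. None was called by edgeR, and DESeq2 called 1 in each direction, against 1.75% of all tested genes called higher and 2.67% called lower. Igf2r, which carries lysosomal enzymes and clears insulin-like growth factor 2, rose by DESeq2 from 75.9 and 85.0 CPM in the controls to 155 and 170 CPM in the stressed libraries (log2 fold change 1.01, SE 0.18, adjusted p = 0.00042). Mc5r, a melanocortin receptor known from sebaceous glands, fell by DESeq2 from 6.64 and 9.07 CPM to 1.03 and 1.64 CPM (adjusted p = 0.0124). Fgfr3 was at 130 and 69.8 CPM in the controls against 67.0 and 38.6 CPM in the stressed libraries, and Mst1r, which encodes the Met relative RON, was at 41.7 and 41.6 against 30.9 and 21.7 CPM. Neither passed DESeq2 or edgeR.

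Genes that act below the receptors differed little as groups. The 21 adaptors and proximal enzymes had a median log2 fold change of 0.039, with 13 fitted higher and 8 lower, and no call by edgeR or DESeq2. Lyn, a SRC family kinase, was at 10.6 and 13.0 CPM in the controls against 22.3 and 29.2 CPM in the stressed libraries (DESeq2 adjusted p = 0.0629), Shc1 at 132 and 149 against 186 and 221 CPM, and Pik3r2, a PI3 kinase regulatory subunit, at 161 and 230 against 124 and 137 CPM. The 20 cascade genes had a median of 0.11, with 14 fitted higher and 6 lower, and no edgeR call. Akt1, a kinase of the PI3 kinase arm, was at 323 and 339 against 417 and 534 CPM, and Hras at 166 and 127 against 106 and 98.0 CPM, neither called by either tool.

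Among 13 attenuators of receptor signalling 8 fitted higher and 5 lower, with a median of 0.10, no edgeR call and 1 DESeq2 call in each direction. Over all tested genes DESeq2 called 1.75% higher and 2.67% lower. Lrig1, a membrane protein that promotes breakdown of ErbB receptors and Met, fell by DESeq2 from 181 and 261 CPM in the controls to 77.6 and 67.6 CPM in the stressed libraries. Its log2 fold change was -1.61 (SE 0.24), with a DESeq2 adjusted p of 6.37e-07 and an edgeR adjusted p of 0.121. Lrig1 is also known as a marker of stem cells of the upper hair follicle, and keratinocyte markers were lower in the same libraries. Their part was not tested. Grb10, an adaptor that dampens insulin and insulin-like growth factor receptors, rose by DESeq2 from 63.7 and 53.4 CPM to 99.4 and 115 CPM (adjusted p = 0.015). Ptpn6, a phosphatase that restrains Kit, had 22 and 24.4 CPM in the controls against 13.3 and 10.7 CPM in the stressed libraries, with an adjusted p of 0.163 by DESeq2.

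The 22 tested G protein and cyclic AMP partners of Mc1r and Ednrb had a median of 0.094, with 14 fitted higher and 8 lower and no edgeR call. Adcy7, an adenylate cyclase, rose by DESeq2 from 97.2 and 85.2 CPM to 139 and 171 CPM (adjusted p = 0.032). Gnai1, which encodes an inhibitory G protein subunit, fell by DESeq2 from 86.5 and 48.5 CPM to 29.9 and 19.9 CPM (adjusted p = 0.00806). Adcy9, another cyclase, was at 15.5 and 23.5 against 37.0 and 22.9 CPM. Mrap and Mrap2, accessory proteins of melanocortin receptors, had 0 reads in every library, which allows up to 0.253 to 0.324 CPM.

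All 5 tested IGF binding protein genes fitted lower, with a median of -1.33, against 50.9% of all tested genes, and in 3 both stressed libraries lay below both controls, as in 22.9% of all tested genes. None was called by edgeR. The 17 keratinocyte markers summed to 30100 and 18221 CPM in the controls against 11756 and 9899 CPM in these stressed libraries, and their part in the IGF binding protein values was not tested. Igfbp4 fell by DESeq2 from 57.6 and 87.9 CPM to 37.6 and 20.5 CPM (adjusted p = 0.0185), and Igfbp3 was at 127 and 87.4 against 79.6 and 39.1 CPM. Igfbp5 spread widely within groups, at 25.8 and 2.88 against 11.1 and 0.182 CPM. Among 6 genes of the shedding proteases and their regulators, 3 fitted higher and 3 lower, with no edgeR call. Adam10, a protease that cuts ErbB ligands and receptors from the cell surface, rose by DESeq2 from 216 and 184 CPM to 323 and 322 CPM (log2 fold change 0.69, SE 0.19, adjusted p = 0.0223). Adam9, at 47.6 and 62.8 against 69.4 and 64.4 CPM, and Rhbdf2, at 75.4 and 93.5 against 60.9 and 58.0 CPM, were not called by either tool.

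**Figure D4:**
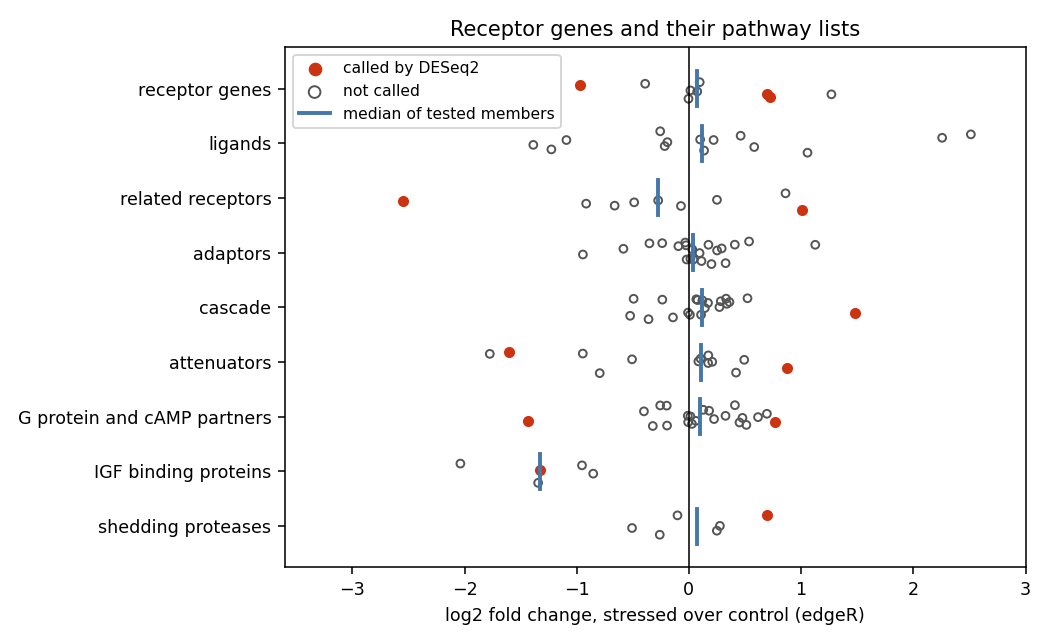
Fitted log2 fold change, stressed over control, of each tested gene of the receptor set and of the 8 pathway lists, with filled red points for genes called by DESeq2, open points for others and a blue bar at each list's median. Medians lie between -0.27 and 0.12 for all lists but the IGF binding proteins, at -1.33.

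Across the 8 pathway lists DESeq2 called 9 of 110 tested genes, against 4.41% of all tested genes, and edgeR none, as over all genes. These DESeq2 calls moved with the libraries used, as did those over all genes. With 1 library left out, Lrig1 was the only gene of the 9 that DESeq2 called in all 4 fits. Without control replicate 1 DESeq2 called Kitl, Pik3r2 and Lrig3, which it did not call with all libraries. Mc5r and Gnai1 were no longer called in that fit. The number of list genes called in each such fit is not read as a result about the lists.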

How the data were processed

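The values deposited are raw read counts, as whole numbers. Per the file headers, featureCounts 1.6.1 produced them: exons summed by gene name on mm10, minimum mapping quality 30, no strand or paired-end option. The submitters' processing notes also list Trim Galore 0.4.1, STAR 2.5.3 and DESeq2 1.22.2. Reads from overlapping antisense genes cannot be told apart. Per the file headers the alignments of stressed replicates 1 and 2 are numbered 2 and 3. Within pairs, counts differed beyond sampling noise (chi-square per degree of freedom 53.99 for control, 17.99 for stressed).

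In R 4.3.3, genes passing edgeR's filterByExpr (minimum count 10) were scaled by TMM and tested two-sided by quasi-likelihood in edgeR 4.0.16, group as only term, Benjamini-Hochberg adjusted over 13348 genes, threshold 0.05. SE is the absolute log2 fold change over the square root of F. Alternatives were DESeq2 1.42.0, limma-voom (limma 3.58.1), other scalings and filters, a replicate block, thinning and each library left out. Scripts were tested on simulated data. The members and lists were chosen with earlier results of these data known. Named list genes had at least 10 CPM and were called by DESeq2 or among the 3 largest differences. Names outside that rule (the ligands, Ednra, Erbb4, Egfr, Mc5r, Mrap, Mrap2, Igfbp5) were added for their role or after their values were seen. Some genes that the rules name are not reported here. Sequences are RefSeq's, GRCm38.p6.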

Additional observations from a re-analysis of the deposited data

How the results depend on the processing

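With 2 libraries a group, calls rested on the tool and on single libraries. Over all genes, the main edgeR count was 0, DESeq2 called 589 (233 higher, 356 lower), and edgeR with no low-count filter called 760 (255 higher, 505 lower). Leaving out 1 library, by edgeR or DESeq2, gave 0 to 800 genes, 0 to 327 higher and 0 to 513 lower. Where 1 library remained in a group, it was assumed to vary like the other pair. Among the receptors, DESeq2 called 3 (Kit 0.70, Met 0.728, Fgfr2 -0.963), no filter called 2 (Mc1r 1.275, Fgfr2 -0.968), and leaving out 1 library called 0 to 3. Among pathway list genes these counts were 9, 12 and 0 to 10. The causes were not tested.

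The log2 fold changes with 1 library left out ran from 0.539 to 0.850 for Kit, 0.590 to 0.878 for Met, 0.750 to 2.097 for Mc1r, -0.450 to -0.312 for Erbb2 and -1.364 to -0.649 for Fgfr2. None of these 5 changed sign in any of 15 alternatives. They are the receptors whose groups did not overlap, as for 44.7% of all tested genes. Leaving out a library or rescaling could hardly turn the sign of such a gene. Signs turned for Ednrb (-0.080 to 0.081), Erbb3 (-0.053 to 0.275), Igf1r (-0.191 to 0.322) and Fgfr1 (-0.234 to 0.327). That of Ednrb also turned with DESeq2 and with its size factors (0.002 in both), and that of Fgfr1 after thinning to the smallest library (-0.022). List medians ran from -0.225 to 0.892 for ligands, -0.386 to -0.222 for related receptors, -0.154 to 0.256 for adaptors and 0.110 to 0.172 for the cascade. They ran from -0.153 to 0.161 for attenuators, 0.080 to 0.202 for G protein partners, -1.764 to -0.428 for IGF binding proteins and -0.076 to 0.432 for shedding proteases.

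Same-numbered libraries share only a number in the labels, and their deviations correlated at 0.17. With the replicate number as a block, edgeR called 0 genes, and the log2 fold changes were 0.69 for Kit, 0.73 for Met, 1.38 for Mc1r and -1.01 for Fgfr2. DESeq2 size factors, upper-quartile scaling, limma-voom and thinning gave 0 calls too. Counts of 3 or fewer reads, as for Hgf, limit what can be said of most ligands.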
